A study of Mus musculus with 4 samples.

Results

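The genes described here are 35 integrin chains and other cell adhesion molecules, taken by their gene names on a mouse Agilent array that carries 27827 gene names in all. They are covered by 80 of the 41174 probes on the array, 26 of them by more than 1 probe, and each gene is represented by its probe with the highest mean signal over the arrays, with its other probes as a check. The values come from 4 cultures of BALB/C mouse bone marrow cells, with 1 one-colour array per culture. The first culture, the antibody-treated sDCs, and the second, the sDCs, both grew from lineage-depleted haematopoietic progenitors seeded on a monolayer of Sca-1+CD117-Lin- mesenchymal stem cells, received lipopolysaccharide (LPS, a bacterial product that matures dendritic cells) on day 4 and were taken on day 9, and an antibody that neutralizes IL-10 was added to the first at 10 µg/mL every 2 days. The third, the maDCs (mature dendritic cells), were purified imDCs kept for 4 to 5 further days with 10 ng/mL of LPS. IL-4 at 5 ng/mL and GM-CSF at 10 ng/mL are listed for the maDCs as for the imDCs. The fourth, the imDCs (immature dendritic cells), came from marrow grown with IL-4 at 5 ng/mL and GM-CSF at 10 ng/mL, of which the clusters that still adhered loosely on day 4 were kept. They were then enriched with beads against CD11c, which is the product of Itgax, one of the genes described. Neither the LPS dose of the sDCs nor the way they were parted from the stroma is given in the sources used here. With 1 array per culture there are no replicates and no test, so every difference below is one between single arrays, and genes are counted where they differ by at least 2-fold, a log2 difference of 1.

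Integrins are membrane receptors made of an alpha and a beta chain, and the pairing of the chains sets what the receptor binds. The beta-2 integrins are carried by leukocytes and bind ICAMs and complement fragments, the beta-7 pairs guide lymphocytes and dendritic cells to mucosa, and most beta-1 and alpha-v pairs bind matrix proteins such as collagen, laminin, fibronectin and vitronectin. Selectins and their ligands capture leukocytes from flowing blood, immunoglobulin-type molecules such as ICAM-1 and PECAM-1 act in leukocyte contact and transmigration, and cadherins join like cells through calcium-dependent contacts. Dendritic cells are commonly recognised by CD11c (Itgax), and a subset of them by CD103 (Itgae).

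The 4 genes with the widest differences between sDCs and maDCs were read by the following probes, of which the first 30 of 60 bases are shown, 5′ to 3′, with positions in the mouse build mm9. These probes are shown for the size of their differences, and the 4 genes were picked from the same values.
Itgax (chr7:135294052-135294111, plus strand): tcccatctacttttgcaacgttggaattga
Itgae (chr11:72959105-72960563, plus strand): catcggaggcctcctggtcttggttgtgat
Itga8 (chr2:12028462-12028521, minus strand): catacattggtattctcgaggagtctatct
Itga9 (chr9:118807900-118807959, plus strand): taccttcagctttgtgtagccaaaaaagcc
The position of the Itgae probe spans more than its 60 bases because the files list the genomic ends of its match. All levels below are log2 signals relative to the 75th percentile of the array, so a level of 0 is the signal at that percentile. Levels of different genes come from different probes and are not compared with each other.

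Of the 35 genes, 29 were well above background on all 4 arrays, 4 (Itga8, Itga9, Pecam1 and Cdh5) on some of them and 2 on none. Those 2, Itga2, which encodes the alpha chain of a collagen receptor, and Itgb6, a beta chain typical of epithelium, gave no values in any comparison. The number detected was 32 on the antibody-treated sDC array, 33 on the sDC array, 32 on the maDC array and 31 on the imDC array. The imDC array lay on another slide than the remaining 3, so slide and culture cannot be told apart in any comparison with imDCs. Probes spotted 10 times on each array had a median SD between spots of 0.0474 to 0.0591 log2 units, which covers spotting and scanning only. Marker lists differed widely between the same arrays. Each of 10 dendritic cell identity genes (among them Flt3, Zbtb46 and Irf4) had a signal in sDCs that lay 2-fold or more under those in maDCs and in imDCs, and Irf4 was not well above background in sDCs, so the sDC label is used here as a name and not as a cell type. All 9 macrophage markers were higher in sDCs than in imDCs, with levels of -0.40 to 6.90 in sDCs and -4.86 to 4.02 in imDCs. In signals from many cells at once, fewer cells of a type and less RNA per cell cannot be told apart.

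**Figure D1:**
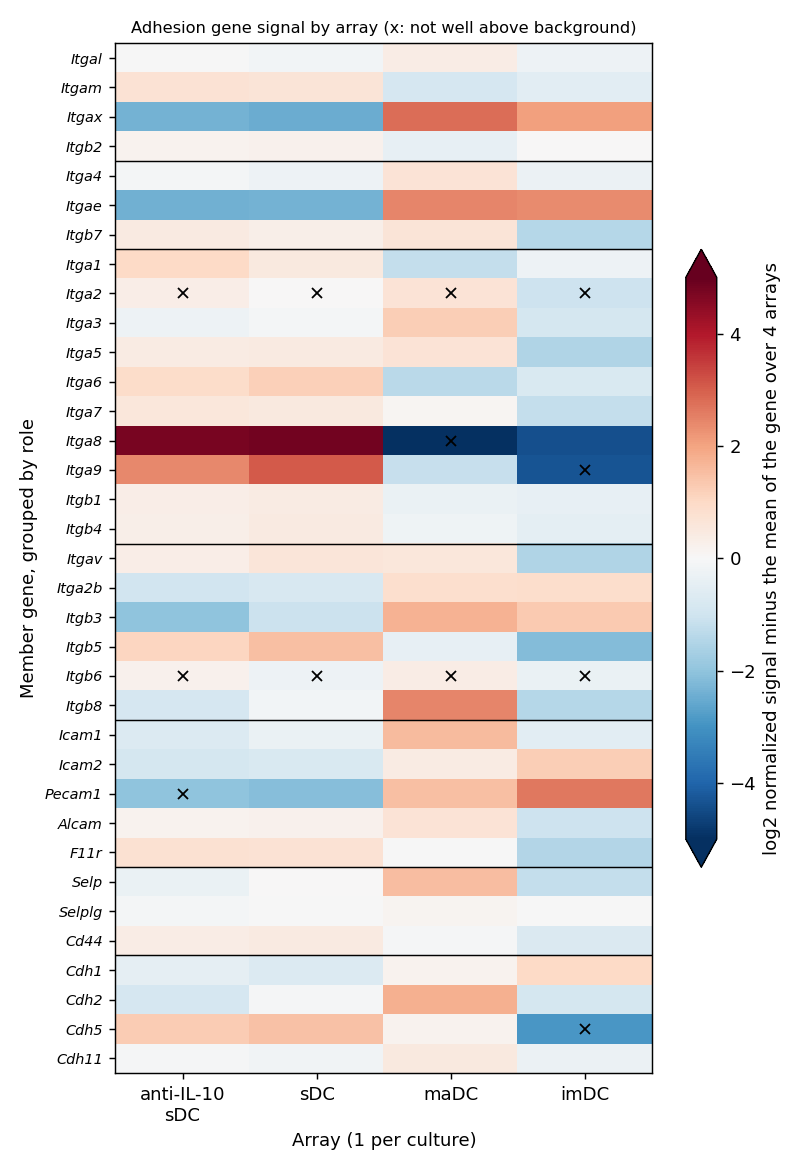
Log2 normalized signal of each of the 35 genes (rows, grouped by role) on the 4 arrays (columns), minus the mean of the gene over the arrays; a cross marks a probe not well above background, and colours saturate at 5 log2 units. Itgax and Itgae are low and Itga8 and Itga9 high on both sDC arrays, and the 2 sDC columns resemble each other.

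Among the beta-2 integrins, the CD11c chain differed most. Itgax was at -1.47 in antibody-treated sDCs, -1.60 in sDCs, 3.70 in maDCs and 2.93 in imDCs, so both stroma-formed cultures lay far below both conventional ones. It was 39.5-fold lower in sDCs than in maDCs (-5.30) and 23.2-fold lower than in imDCs (-4.53), and its other probe gave -3.72 and -2.38. The imDCs, and so the maDCs derived from them, had been selected on the CD11c protein, and the part of that selection in the Itgax signal was not tested. Itgam, the alpha chain of the complement receptor CR3 (CD11b), went the other way, at 4.45 in antibody-treated sDCs, 4.35 in sDCs, 2.88 in maDCs and 3.18 in imDCs, so that sDCs were 2.78-fold higher than maDCs (1.47; 1.85 on the other probe). Itgal, the alpha chain of LFA-1, an adhesion receptor of most leukocytes, lay at 2.83, 2.72, 3.23 and 2.58 on the antibody-treated sDC, sDC, maDC and imDC arrays, within 2-fold throughout. Itgb2, the beta chain shared by all 3 of these alpha chains, likewise stayed within 2-fold, at 5.38 in antibody-treated sDCs, 5.43 in sDCs, 4.79 in maDCs and 5.22 in imDCs. The beta-2 chain signal was thus similar on arrays on which the signals of its alpha chains Itgax and Itgam differed in opposite directions.

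A second pair of chains was unequal in the same manner. Itgae, the alpha-E chain (CD103) that binds E-cadherin, was at -4.07 in antibody-treated sDCs and -4.03 in sDCs, against 0.79 in maDCs and 0.71 in imDCs. That is 28.3-fold lower in sDCs than in maDCs (-4.82) and 26.8-fold lower than in imDCs (-4.75), and on its other probe, which was not well above background in sDCs, at least 20.8-fold and 31.4-fold lower. After normexp background correction the Itgae differences were -4.03 and -3.95. Itgb7, the beta chain with which alpha-E pairs, was instead at 4.04 in antibody-treated sDCs, 3.90 in sDCs, 4.25 in maDCs and 2.18 in imDCs. It was low only on the imDC array and differed by -0.35 between sDCs and maDCs, while maDCs were 4.18-fold higher than imDCs (2.06) and sDCs 3.29-fold higher (1.72). Itga4, which pairs with the beta-7 or the beta-1 chain and binds VCAM-1 and MAdCAM-1, was highest in maDCs, at -0.24 in antibody-treated sDCs, -0.38 in sDCs, 0.55 in maDCs and -0.44 in imDCs, without reaching 2-fold. Its 5 other probes, 2 of them giving limits only, ran from -3.30 to -0.79 for sDCs minus maDCs and between 1.37 and 3.27 for maDCs minus imDCs, so all 6 had the same direction and the size depended on the probe.

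The chains of matrix-binding integrins held the largest differences in the opposite direction. Itga8, the alpha chain of a receptor for nephronectin and fibronectin known from mesenchymal and smooth muscle cells, was at 2.41 in antibody-treated sDCs and 2.52 in sDCs, against -7.49 in maDCs, where it was not well above background, and -6.73 in imDCs, close to the lowest signal called there. It was at least 250-fold higher in sDCs than in maDCs and 612-fold higher than in imDCs (9.26), and a second probe gave at least 163-fold and 331-fold. After normexp background correction the differences of Itga8 were smaller, at 6.29 or more against maDCs and 7.01 against imDCs. Another Itga8 probe, dim outside the stroma-formed cultures, gave smaller bounds of at least 1.74-fold and 6.21-fold. Itga9, the alpha chain of a receptor for tenascin, osteopontin and VCAM-1, was at -1.15 in antibody-treated sDCs, -0.48 in sDCs, -4.71 in maDCs and -7.88 in imDCs, where it was not well above background. It was 18.8-fold higher in sDCs than in maDCs (4.23; at least 15.1-fold on the other probe), at least 111-fold higher than in imDCs, and at least 5.94-fold higher in maDCs than in imDCs. These Itga9 differences were 3.12, 4.34 and 1.22 after normexp correction.

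Stromal markers differed between the same arrays as Itga8 and Itga9. Of 10 stromal markers, 9 exceeded both conventional cultures by 2-fold or more in sDCs, and 1, Thy1, was lower. Of the 9 with a value for maDCs and imDCs, 6 were higher in maDCs (median 2.56). Their levels ran from -3.17 to 5.57 in sDCs (median 3.10), from -5.51 to 6.63 in maDCs (median -2.26) and from -8.18 to 6.74 in imDCs (median -5.14), with summed signals of 7.44, 6.69 and 6.75 in log2 units, and Thy1 was the highest of them in both maDCs and imDCs. Pdgfra was not well above background in maDCs and imDCs, nor were Col3a1 and Lum in imDCs. The part of stromal cells in the Itga8 and Itga9 signals was not tested.

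Other chains of this group were laminin and collagen receptors. Itga6, which pairs with the beta-1 or beta-4 chain to bind laminin, was at 2.09 in antibody-treated sDCs, 2.38 in sDCs, -0.17 in maDCs and 0.42 in imDCs, so that sDCs were 5.88-fold higher than maDCs (2.56) and 3.90-fold higher than imDCs (1.97). Both other probes went the same way (2.66, and at least 3.78, against maDCs). Itga1, a collagen receptor chain, was at -0.26 in antibody-treated sDCs, -0.77 in sDCs, -2.45 in maDCs and -1.48 in imDCs, the lowest in maDCs. It was 3.20-fold higher in sDCs than in maDCs (1.68; 1.08 and 1.90 on the other probes). Itga3, a laminin receptor chain, was highest in maDCs, at 0.05 in antibody-treated sDCs, 0.21 in sDCs, 1.55 in maDCs and -0.58 in imDCs. The difference of -1.34 between sDCs and maDCs came from that probe, while another, measured on both arrays, gave -0.06, and the mean over probes of -0.70 fell short of 2-fold. The 2.14 between maDCs and imDCs was 0.05 on that other probe.

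Itga5, the alpha chain of the main fibronectin receptor, was low only in imDCs, at 1.0 in antibody-treated sDCs, 1.03 in sDCs, 1.28 in maDCs and -0.91 in imDCs. Itga7, a laminin receptor chain known from muscle, was likewise lowest in imDCs, at -3.02, -3.11, -3.49 and -4.77 on the antibody-treated sDC, sDC, maDC and imDC arrays. Its difference of 1.28 between maDCs and imDCs was 0.85 after quantile normalization, 0.97 after normexp background correction and 0.81 in the authors' deposited values, and so did not hold at 2-fold. Itgb1, the beta chain of the widest set of integrins, was at 1.73 in antibody-treated sDCs, 1.79 in sDCs, 1.05 in maDCs and 0.99 in imDCs, and Itgb4, the laminin-binding beta chain of epithelial hemidesmosomes, differed by at most 0.94. Both stayed within 2-fold in all 4 comparisons. The other Itgb1 probe detected on every array differed by 0.20 at most, and that of Itgb4 by 1.01 between sDCs and imDCs.

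The alpha-v chain and its beta partners showed 3 different profiles. Itgav, which binds RGD-containing proteins such as vitronectin, was at 0.51 in antibody-treated sDCs, 0.77 in sDCs, 0.73 in maDCs and -1.33 in imDCs, so that only imDCs were low. maDCs were 4.20-fold higher than imDCs (2.07), with 2.07 to 2.76 on the 4 other probes with a value. For sDCs minus imDCs the chosen probe gave 2.10, but the others ran from -0.18 to 2.61, and for sDCs minus maDCs from -2.40 to 0.33 around a chosen value of 0.03. Itgb5, a beta chain that pairs with alpha-v and binds vitronectin, was graded across the cultures, at 3.83 in antibody-treated sDCs, 4.28 in sDCs, 2.35 in maDCs and 0.59 in imDCs. It was 3.81-fold higher in sDCs than in maDCs (1.93) and 12.9-fold higher than in imDCs (3.69). Itgb8, the beta chain of an integrin that activates latent TGF-beta, was instead highest in maDCs, at -4.43 in antibody-treated sDCs, -3.74 in sDCs, -1.16 in maDCs and -5.02 in imDCs. maDCs were 14.6-fold higher than imDCs (3.87; 3.12 on another probe, and 2.96 after normexp), and sDCs were 6.01-fold lower than maDCs (-2.59). The smaller difference of Itgb8 between sDCs and imDCs, 1.28, fell to 0.83, 0.88 and 0.80 with quantile normalization, normexp and the authors' deposited values.

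Itga2b, the alpha-IIb chain (CD41) known from platelets and marrow progenitors, was at -3.07 in antibody-treated sDCs, -2.90 in sDCs, -1.26 in maDCs and -1.23 in imDCs, 3.11-fold lower in sDCs than in maDCs (-1.64). Of 10 other megakaryocyte and platelet markers, sDCs exceeded maDCs by 2-fold or more in 2 and were lower in 1. Their summed signals were 6.33, 6.68, 6.83 and 4.87 log2 units in antibody-treated sDCs, sDCs, maDCs and imDCs. Pf4 had the highest signal of these markers on every array, at 6.22, 6.55, 6.77 and 4.38, close to the sums. The median levels of the list had another order and were highest in imDCs, at -2.78, -1.84, -1.4 and -1.25 on the same arrays. A part of such cells in the Itga2b signal was not tested.

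Itgb3, the beta chain of both the platelet fibrinogen receptor and the vitronectin receptor of osteoclasts and macrophages, gave opposite answers on its 2 probes. The first 30 bases of both probes are shown because the direction for Itgb3 depends on which is read.
Itgb3, chosen probe (chr11:104531672-104531731, plus strand): ccacagcaacatcagagtctttgtccattt
Itgb3, other probe (chr11:104528490-104528560, plus strand): tgggactctctgccattatgtttacagagg
The chosen probe was at 0.00 in antibody-treated sDCs, 0.91 in sDCs, 3.75 in maDCs and 3.31 in imDCs. The other was at 1.90 in antibody-treated sDCs, 2.21 in sDCs, 1.98 in maDCs and -0.46 in imDCs. The first was therefore high in both conventional cultures and the second low only in imDCs, and sDCs minus imDCs was -2.40 on the first and 2.67 on the second, while sDCs minus maDCs was -2.85 and 0.23. Both probes were well above background on every array, and no direction is given for the gene. The next 2 genes with this kind of doubt are Itgav, above, and Cdh11, below.

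Among the immunoglobulin-type molecules, Icam1, the ligand of beta-2 integrins that inflammatory signals are known to induce, was high in maDCs alone. It was at 2.93 in antibody-treated sDCs, 3.29 in sDCs, 5.19 in maDCs and 3.09 in imDCs. maDCs were 4.29-fold higher than imDCs (2.10; 1.44 on the other probe), and sDCs, which had also received LPS, were 3.73-fold lower than maDCs (-1.90; -2.04) and within 2-fold of imDCs. The 250 bases before the Icam1 start (RefSeq, GRCm38.p6, chr9:21015690-21015939, plus strand) are shown since Icam1 is the member known as an NF-kB target, with a match to the NF-kB-like letters GGAANTTCC in capitals, 153 to 145 bases before the start.
Icam1: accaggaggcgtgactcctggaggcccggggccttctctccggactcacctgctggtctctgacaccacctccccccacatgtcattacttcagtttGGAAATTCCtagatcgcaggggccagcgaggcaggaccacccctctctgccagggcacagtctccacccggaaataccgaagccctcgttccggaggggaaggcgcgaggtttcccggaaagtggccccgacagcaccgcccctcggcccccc
Of the 21 members with a promoter in the RefSeq table, Icam1 was the only one with these letters on either strand, and 0.813% of all 32851 promoters of the same length hold them. The same window before Itgax (chr7:128129300-128129549, plus strand) is shown as well, since Itgax was 39.5-fold lower in sDCs than in maDCs. The letters TGANTCA of an AP-1 site are in capitals, 56 to 50 bases before the start.
Itgax: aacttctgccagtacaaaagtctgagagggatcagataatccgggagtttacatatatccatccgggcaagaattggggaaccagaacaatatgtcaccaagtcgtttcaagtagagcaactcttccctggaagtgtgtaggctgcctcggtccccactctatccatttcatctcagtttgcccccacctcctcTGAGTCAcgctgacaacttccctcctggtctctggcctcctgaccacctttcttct
Those letters also occurred before F11r and Selp, and in 6.75% of all promoters. The PU.1-like letters GAGGAA were found before 10 of the 21 members, Itgam among them, against 23.3% of all promoters, and the E-box letters CACCTG before 9, against 17.2%. Members were counted by gene and the percentages by single promoter, so a gene with more than 1 promoter had more chances of a match and the shares are not alike. Both strands were searched, no match to the other motifs overlapped the letters in capitals, and a match is a description of the letters only.

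Pecam1, an adhesion molecule of endothelium, platelets and leukocytes, was low in both stroma-formed cultures, at -5.64 in antibody-treated sDCs (not well above background), -5.74 in sDCs, -2.13 in maDCs and -1.0 in imDCs. It was 12.2-fold lower in sDCs than in maDCs (-3.61) and 26.6-fold lower than in imDCs (-4.73), sizes that were -2.04 and -2.99 after normexp background correction. It was the 1 gene of the 35 that was at least 2-fold lower in maDCs than in imDCs, at -1.12 (-0.95 after normexp correction, short of 2-fold). Icam2, a ligand of LFA-1 on endothelium and leukocytes, was also lower in both stroma-formed cultures than in maDCs and imDCs, at -0.22 in antibody-treated sDCs, -0.11 in sDCs, 1.08 in maDCs and 1.89 in imDCs. It was 2.28-fold lower in sDCs than in maDCs (-1.19) and 4.01-fold lower than in imDCs (-2.0). Of 8 endothelial markers with a value for sDCs and maDCs, 5 were at least 2-fold lower in sDCs and none higher. Of 9 with a value for sDCs and imDCs, 4 were at least 2-fold lower in sDCs and 1, Kdr, was higher (4.07). Levels of the 10 listed markers ran from -8.28 to 2.06 in sDCs, from -6.22 to 3.13 in maDCs and from -6.41 to 2.05 in imDCs. The number well above background was 6, 8 and 10 of 10, and Tie1 and Emcn were among those not above it in sDCs. The part of such cells in the Pecam1 and Icam2 signals was not tested.

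The remaining molecules of this type were low only in imDCs. Alcam, the ligand of CD6 on T cells, was at 3.37 in antibody-treated sDCs, 3.41 in sDCs, 3.88 in maDCs and 2.19 in imDCs, 3.23-fold higher in maDCs than in imDCs (1.69) and 2.33-fold higher in sDCs than in imDCs (1.22). F11r, the junctional molecule JAM-A, was at 2.94 in antibody-treated sDCs, 2.90 in sDCs, 2.15 in maDCs and 0.72 in imDCs, 2.69-fold higher in maDCs than in imDCs (1.43) and 4.52-fold higher in sDCs than in imDCs (2.18).

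Selp, the P-selectin of platelets and endothelium, was highest in maDCs, at -2.75 in antibody-treated sDCs, -2.41 in sDCs, -0.86 in maDCs and -3.62 in imDCs. maDCs were 6.75-fold higher than imDCs (2.76; 1.93 on the other probe), and sDCs were 2.93-fold lower than maDCs (-1.55; -0.61). Its difference of 1.21 between sDCs and imDCs was 0.89 after quantile normalization and 0.87 in the authors' deposited values. Selplg, the P-selectin ligand PSGL-1, was among the flattest of the 35, at 4.03 in antibody-treated sDCs, 4.08 in sDCs, 4.25 in maDCs and 4.09 in imDCs, its other probe staying within 0.58 as well. Cd44, the hyaluronan receptor, was at 5.19 in antibody-treated sDCs, 5.28 in sDCs, 4.78 in maDCs and 4.10 in imDCs. The difference of 1.18 between sDCs and imDCs was 0.99 after quantile normalization and 0.75 as a mean over its 3 probes. A dimmer Cd44 probe had another order, with maDCs highest (-4.30, -4.68, -3.03 and -4.82 on the antibody-treated sDC, sDC, maDC and imDC arrays).

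The 4 cadherins had no profile in common. Cdh1, the E-cadherin of epithelia and of Langerhans cells and a ligand of the alpha-E integrin, was at 1.44 in antibody-treated sDCs, 1.18 in sDCs, 2.04 in maDCs and 2.86 in imDCs, 3.21-fold lower in sDCs than in imDCs (-1.68). Of 7 epithelial markers, 3 were well above background in antibody-treated sDCs, 5 in sDCs, 3 in maDCs and 5 in imDCs, with a median level of -4.97 in imDCs. Cdh2, the N-cadherin of nerve, muscle and mesenchyme, was highest in maDCs, at -4.81 in antibody-treated sDCs, -4.05 in sDCs, -2.21 in maDCs and -4.88 in imDCs, 6.36-fold higher in maDCs than in imDCs (2.67) and 3.58-fold lower in sDCs than in maDCs (-1.84). After normexp correction these Cdh2 differences were 1.93 and -1.25. Its 2 other probes were not well above background on any array. Cdh5, the cadherin of endothelial junctions, was at -3.98 in antibody-treated sDCs, -3.75 in sDCs, -5.06 in maDCs and -8.14 in imDCs, where it was not well above background. At these low signals the 1.31 between sDCs and maDCs was 0.67 and the bounds of maDCs and of sDCs over imDCs 0.98 and 1.65 after normexp correction, and its other probe was dim on all 4 arrays.

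For Cdh11, the cadherin of osteoblasts, synovial and other mesenchymal cells, the probes differed most. The first 30 bases of all 3 are shown because the result turns on them.
Cdh11, chosen probe (chr8:105191906-105191965, minus strand): ctcagggacaaccaaagtgacgatcactct
Cdh11, probe 2 (chr8:105157896-105157955, minus strand): tatttaaatgaaggagaagtccacggtgaa
Cdh11, probe 3 (chr8:105157473-105157532, minus strand): tattttagtatacatacaaatatcagtatt
The chosen probe was nearly level, at 1.65 in antibody-treated sDCs, 1.53 in sDCs, 2.17 in maDCs and 1.41 in imDCs. Probe 2 was at -0.33 in antibody-treated sDCs and 0.53 in sDCs, against -7.56 in maDCs and -7.57 in imDCs. Probe 3 was at -0.72 in antibody-treated sDCs and 0.18 in sDCs, against -7.75 in maDCs and -8.47 in imDCs. Neither was well above background in maDCs or imDCs. On probes 2 and 3 Cdh11 was therefore at least 62.7-fold and 49.1-fold higher in sDCs than in maDCs, and at least 224-fold and 176-fold higher than in imDCs, whereas the chosen probe gave -0.65 and 0.12. Of the 10 stromal markers, 9 were at least 2-fold higher in sDCs than in maDCs and in imDCs, and 1, Thy1, was lower. What the chosen probe detects was not tested, nor was the part of stromal cells in the signals of probes 2 and 3.

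**Figure D2:**
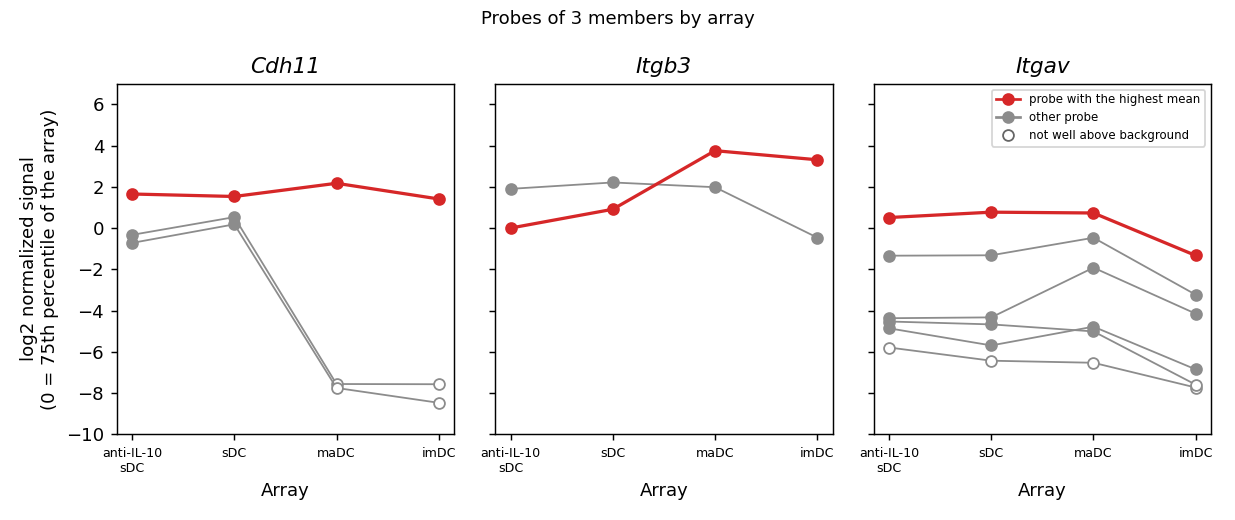
Log2 normalized signal of every probe of Cdh11, Itgb3 and Itgav (3, 2 and 6 probes) on the 4 arrays; red is the probe with the highest mean, grey the others, and open points are not well above background. The 2 grey Cdh11 probes lie near 0 on both sDC arrays and at -7.56 or lower on the maDC and imDC arrays, where the red one is at 2.17 and 1.41.

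The comparison of sDCs with maDCs asked how stroma-formed cells differed from conventional mature cells after LPS, and both arrays lay on 1 slide. Starting cells, stroma and growth factors differed between these cultures, the LPS dose of the sDCs is not given, and their parts cannot be told apart. Itga8, Itga9, Itga6, Itgb5, Itga1, Itgam and Cdh5 were at least 2-fold higher in sDCs, 7 of the 33 genes with a value (21.2%), where 15.4% of all 18078 gene names with a value were. Itgax, Itgae, Pecam1, Itgb3, Itgb8, Icam1, Cdh2, Itga2b, Selp, Itga3 and Icam2 were at least 2-fold lower, 11 of 33 (33.3%), where 16.1% of all were, and 15 lay within 2-fold. Past 2-fold either way were 18 of 33, where 31.5% of all were. The median difference was -0.35 over the genes described and 0.06 over all. Of the 12 genes past 2-fold that had another probe with a value, 11 had every such probe in the same direction, the exception being Itgb3, whose other probe was at 0.23. This count is by sign only, and the other Itga3 probe with a value was at -0.06, against -1.34 on the chosen one. Some genes counted within 2-fold were past it on other probes. These were Cdh11 (at least 62.7-fold and 49.1-fold higher), Itga4 (down to -3.30), Itgav (-2.40) and Cd44 (-1.65). Between the same arrays, 8 of 9 macrophage markers were higher in sDCs (median 2.58, summed signals 8.1 in sDCs and 7.17 in maDCs), 7 of 8 mast cell and basophil markers were lower (median -6.60, -0.57 and 7.11), as were 4 of 5 eosinophil and 4 of 8 T and NK cell markers, and their part in these differences was not tested.

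**Figure D3:**
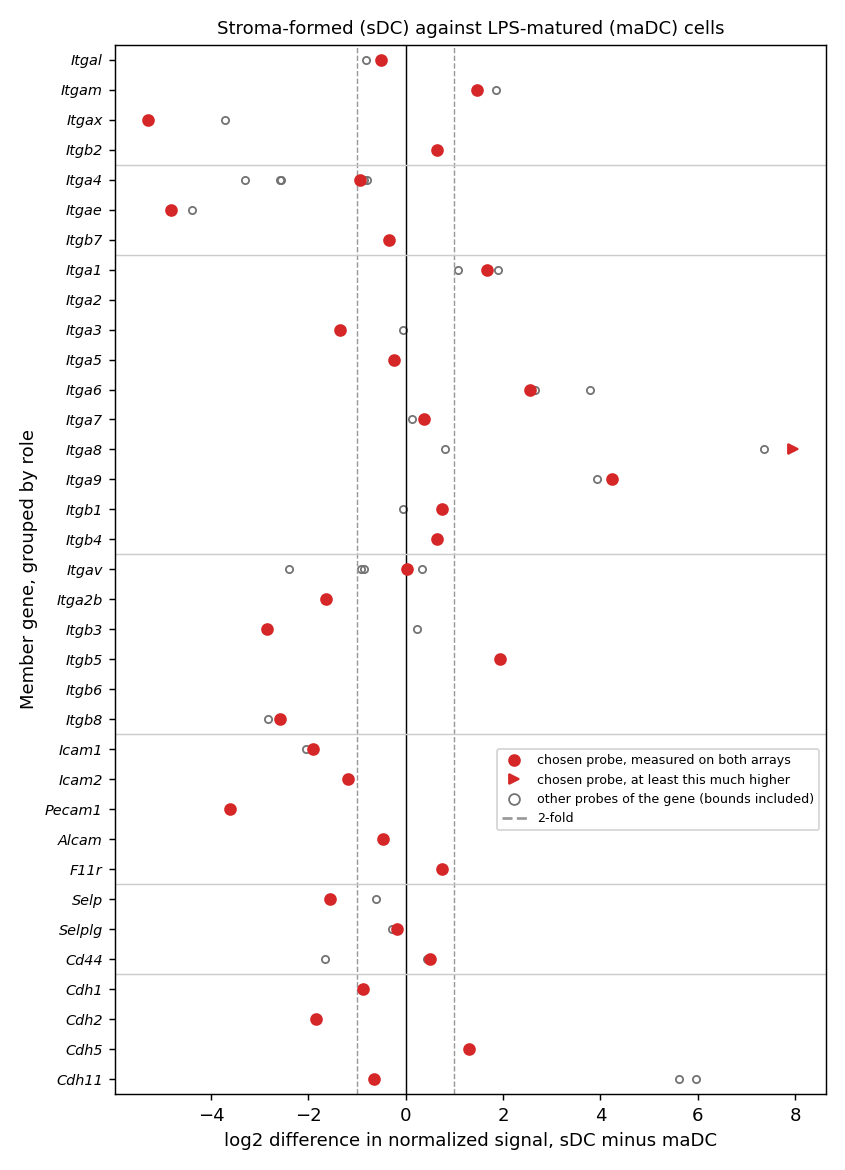
Log2 difference in normalized signal, sDC minus maDC, for the 35 genes grouped by role; filled points are the chosen probes, triangles lower limits of a higher signal, open circles the other probes, and dashed lines 2-fold. Itga8 and Itga9 lie to the right at 7.96 (a limit) and 4.23, Itgax and Itgae to the left at -5.30 and -4.82.

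Partner genes of integrins differed in both directions between sDCs and maDCs. Among 36 adaptors and activators that link integrin tails to actin and to kinases, 7 of the 35 with a value exceeded maDCs by 2-fold or more in sDCs and 3 were lower (median 0.26). Fgr, a Src-family kinase of myeloid cells, was higher by 3.23, the parvin gene Parvb by 3.21 and Fermt2 (kindlin-2, the widely expressed kindlin) by 1.92, while Parvg, the leukocyte parvin, was at -2.69 and Src at -2.08. Fermt3, the kindlin of blood cells, and Tln1 (talin-1) lay within 2-fold, at 0.26 and 0.03; these 2 were added for their roles after their values were seen. Of 30 adhesion ligands, 23 had a value, with 13 at least 2-fold higher in sDCs and 6 lower (median 1.07). Tnc, which encodes tenascin-C, a ligand of the alpha-9 and alpha-8 integrins, was at least 133-fold higher, the laminin chain gene Lamb1-1 at least 32.3-fold, the fibronectin gene Fn1 was higher by 4.77 and Jam3 by 2.99, while Lama5, another laminin chain gene, was at -4.25. Of 8 catenins and junction scaffolds, Vezt and Mllt4 were higher by 1.3 and 1.29 and Tjp1 (ZO-1) was at -3.38.

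In the comparison of maDCs with imDCs, which asked what 4 to 5 more days with LPS went with, more adhesion genes were past 2-fold on the higher side in maDCs than on the lower. At least 2-fold higher were 14 of the 32 genes with a value (43.8%), where 22.2% of all 17247 gene names were: Itgb8, Selp, Cdh2, Itga9, Cdh5, Itga5, Itga3, Icam1, Itgav, Itgb7, Itgb5, Alcam, F11r and Itga7. Pecam1 alone was lower (3.12%, against 10.1% of all, with 32.3% of all past 2-fold either way), and 17 lay within 2-fold, among them all 4 beta-2 integrin chains (-0.43 to 0.77), Itgae (0.08) and Itgb1 (0.05). Some of these 17 were past 2-fold on other probes, namely Itgax (1.33), Itgb3 (2.44), Cd44 (1.8) and Itga4 (1.37 to 3.27). The median was 0.77, against 0.22 over all genes. Marker lists of other cells differed here too. Of 9 macrophage markers, 7 were at least 2-fold higher in maDCs (median 1.35, summed signals 7.17 in maDCs and 5.27 in imDCs). All 8 mast cell and basophil markers with a value were at least 2-fold higher in maDCs, with levels over the 10 listed of -6.44 to 5.99 in maDCs and -9.44 to 4.13 in imDCs and summed signals of 7.11 and 4.73 log2 units, while Tpsab1 was well above background on neither array. All 8 neutrophil markers were at least 2-fold lower in maDCs, with levels of -6.73 to 5.34 in maDCs and -0.76 to 8.17 in imDCs and summed signals of 6.39 and 10.15. Their part in the adhesion gene differences was not tested. The samples hold no LPS-free culture of that age, so LPS, time and slide cannot be told apart.

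Partner genes in that comparison went both ways. Of 35 adaptors and activators with a value, 9 were at least 2-fold higher in maDCs and 7 lower (median -0.15). Lims2, a PINCH adaptor, was higher by 5.23, the scaffold gene Bcar1 (p130Cas) by 4.18, Src by 3.57, Parva by 2.80 and Fermt2 by 2.73. Of 21 ligands with a value, 8 were higher and 2 lower (median 0.26), led by the basement membrane gene Nid1 at 4.59 and Lama5 at 3.93, with Icam5 at 2.85, the hyaluronan synthase gene Has2 at 2.51 and Lamc1 at 2.46. Of 9 catenins and scaffolds, Tjp1 was higher by 3.36 and Jup (plakoglobin) was at least 3.04-fold lower.

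The comparison of sDCs with imDCs shares its sDC array with the first comparison and its imDC array with the second, so its values are not independent of theirs. The genes at least 2-fold higher in sDCs were Itga8, Itga9, Itgb5, Cdh5, F11r, Itgav, Itga6, Itga5, Itgb7, Itga7, Itgb8, Alcam, Selp, Cd44 and Itgam, 15 of 33 (45.5%), where 27.9% of all 18834 gene names were. Those at least 2-fold lower were Itgae, Pecam1, Itgax, Itgb3, Icam2, Cdh1 and Itga2b, 7 of 33 (21.2%), where 14.8% of all were, and 11 lay within 2-fold. Other probes of Itgb3 (2.67) and Itgav (-0.18) went against these counts. Of the genes counted within 2-fold, Cdh11 was at least 224-fold and 176-fold higher on its probes 2 and 3. Other probes of Itga1 (1.38) and Itgb4 (1.01) were past 2-fold too. Past 2-fold either way were 22 of 33, where 42.7% of all were. All 8 neutrophil markers with a value were lower in sDCs (median -7.68, summed signals 7.02 in sDCs and 10.15 in imDCs), as were 7 of 8 mast cell and basophil markers (median -3.60) and 4 of 5 eosinophil markers, and their part in the adhesion gene differences was not tested. The median was 0.83, against 0.30 over all genes. Side by side, Itgae was at -4.75 in sDCs and 0.08 in maDCs, each against the same imDCs, Itgax at -4.53 and 0.77, Itgb8 at 1.28 and 3.87, and Icam1 at 0.20 and 2.10. Among the adaptors 12 of 35 were higher in sDCs and 5 lower (median 0.58), with Lims2 and Bcar1 each higher by 5.44, Fermt2 by 4.65 and Parva by 4.44, and with Parvg at -4.37. Among the ligands 13 of 24 were higher and 2 lower (median 1.46), with Tnc higher by 6.86, Lamb1-1 at least 116-fold, Has2 by 4.70, Lamc1 by 4.42 and Fn1 by 3.50. Of 9 catenins and scaffolds 4 were higher (among them Mllt4 by 1.39, Vezt by 1.29 and the beta-catenin gene Ctnnb1 by 1.07) and Jup was at least 4.60-fold lower.

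**Figure D4:**
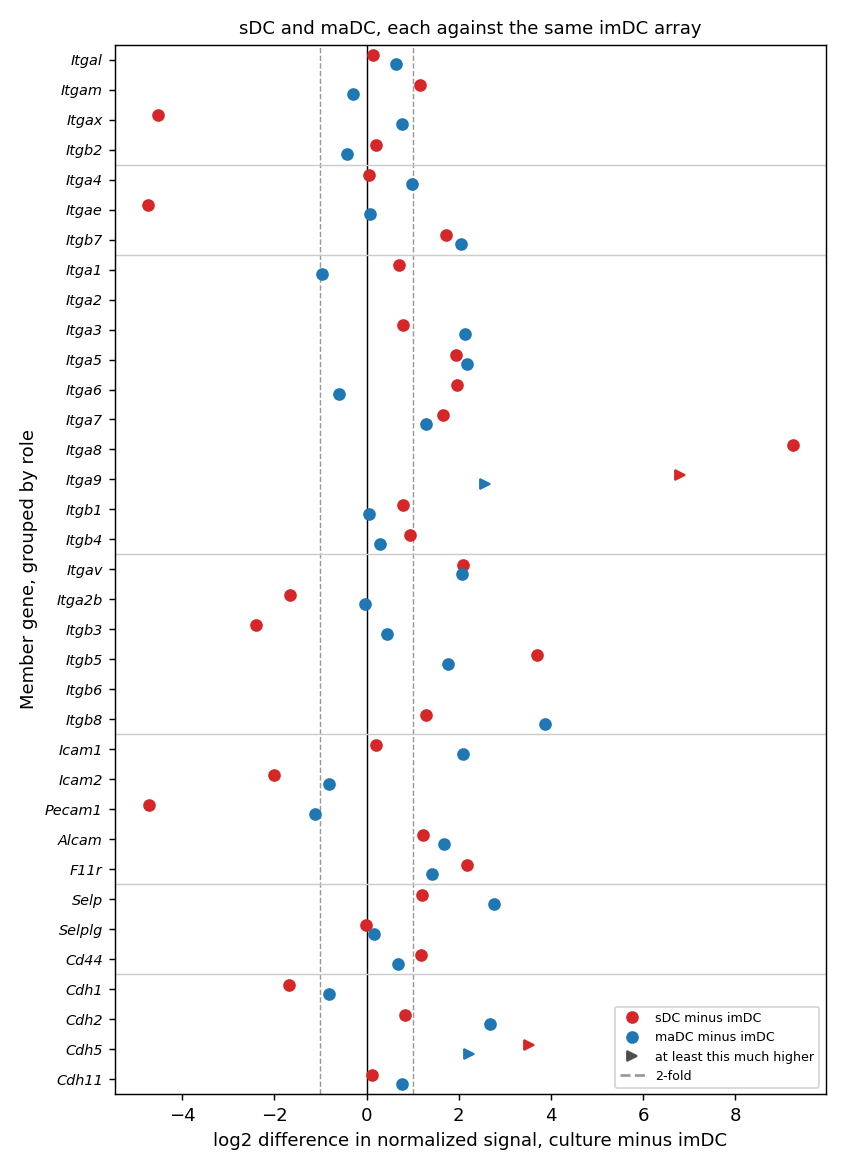
Log2 difference in normalized signal against the same imDC array, for sDCs (red) and maDCs (blue), for the 35 genes grouped by role; triangles are lower limits and dashed lines 2-fold. Itgae, Itgax and Pecam1 have red points at -4.75, -4.53 and -4.73 with blue points at 0.08, 0.77 and -1.12, whereas Itgav and Itgb7 have both points right of the 2-fold line.

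The last comparison asked what the IL-10-neutralizing antibody went with in sDCs. None of the 32 genes with a value was at least 2-fold higher or lower, where 1.01% of all 17948 gene names were higher and 1.30% lower (2.31% either way), and the differences ran from -0.91 to 0.51. The largest were Itgb3 at -0.91 (-0.31 on its other probe), Cdh2 at -0.76, Itgb8 at -0.69 and Itga9 at -0.67 (-0.66 on its other probe) on the lower side, and Itga1 at 0.51 (0.33 and 0.38) on the higher. Of the 4 genes with the widest differences between sDCs and maDCs, Itga9 was thus among the lower ones, while Itgax was at 0.12, Itgae at -0.04 and Itga8 at -0.11. The median was -0.08, against -0.02 over all genes, and the SD of the differences was 0.306 over the 29 genes detected on all arrays, against 0.26 over all 15603 such genes. Without replicate cultures, differences of this size cannot be set against the spread between cultures.

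**Figure D5:**
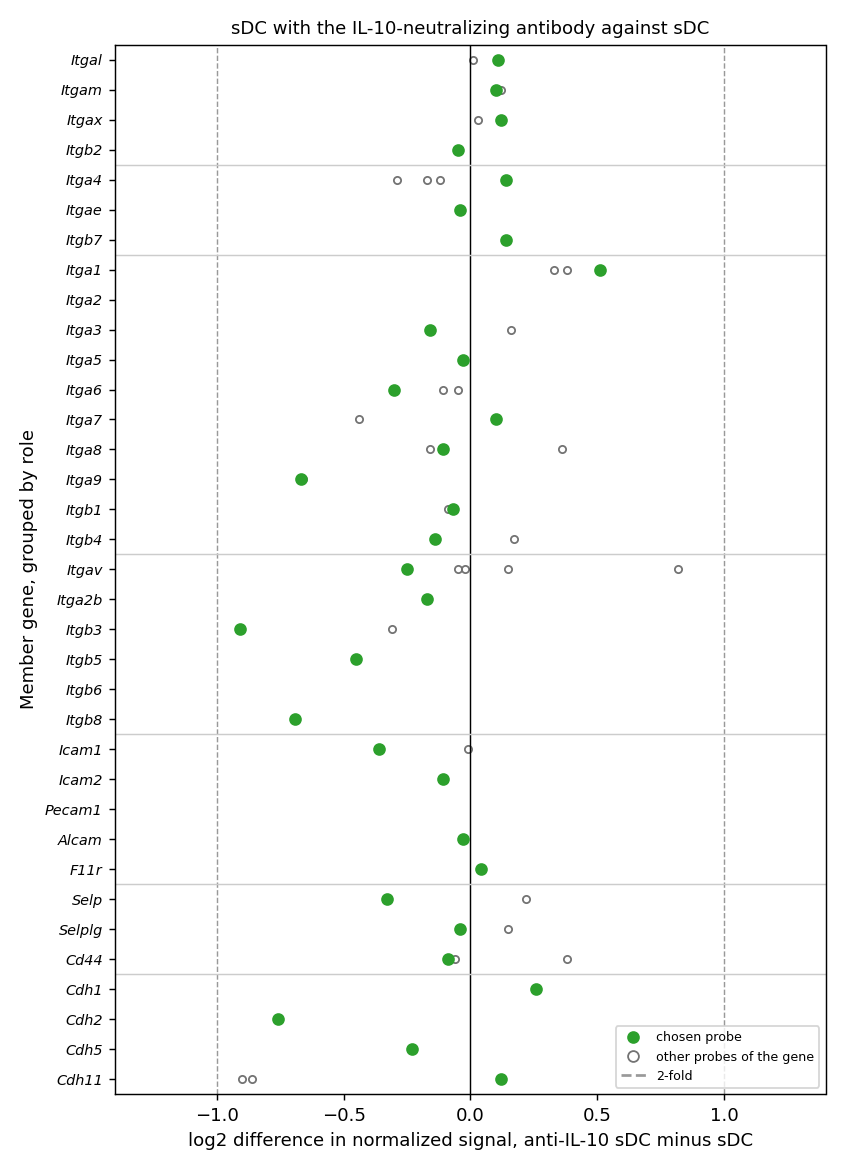
Log2 difference in normalized signal, antibody-treated sDC minus sDC, for the 35 genes grouped by role; filled points are the chosen probes, open circles the other probes, and dashed lines 2-fold. All filled points lie between -0.91 and 0.51, inside the 2-fold lines.

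Partner genes were similarly close in the 2 stroma-formed cultures. None of 35 adaptors and activators reached 2-fold (median -0.02). Of 22 ligands with a value, Lama2 at -1.09 and Vcam1 at -1.01 were lower and none higher (median -0.30), and none of 8 catenins and scaffolds reached 2-fold. The stromal markers were all within 2-fold, but their median was -0.82, with levels of -3.21 to 4.77 in antibody-treated sDCs and -3.17 to 5.57 in sDCs and summed signals of 6.59 and 7.44 log2 units. Cdh11 probes 2 and 3 differed by -0.86 and -0.90. The part of stromal cells in the lower signals of Itga9 and Cdh11 was not tested. Of 8 neutrophil markers, 5 were at least 2-fold higher with the antibody (median 1.20, summed signals 7.89 and 7.02). Of 10 megakaryocyte and platelet markers, 4 were at least 2-fold lower and 6 within 2-fold (median -0.92). Between the same arrays Itgb3 was at -0.91 and -0.31 on its 2 probes. Itga2b and Selp, also known from platelets, were at -0.17 and -0.33 (0.22 on the other Selp probe). The part of such cells in the Itgb3 signal was not tested.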

How the data were processed

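For every array, spot intensity values were deposited by the authors, which, per the file headers, Agilent Feature Extraction 10.5.1.1 had background-subtracted and detrended, with probe positions in mm9; the submitters' processing notes name version 9.1. A value table, which the authors deposited without stating how it was normalized, follows log2 of these intensities (correlations of 0.997 to 1.00 across probes) with an identical median of 6.30 in each column.

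Control spots and outlier spots (76 to 148 per array) were left out, log2 intensity was taken, the 75th percentile of the array's 43379 non-control spots subtracted, and spots of a probe averaged. No spot was saturated (0 per array). A probe counted as well above background if the scanner software had marked 50% or more of its spots (61.2% to 69.7% of all spots per array carried the mark). Where this held on 1 of 2 arrays, the dim value was raised, if needed, to the array's lowest signal among probes above background, and the difference is written as "at least". Each group has 1 sample, so no test was made and the number of arrays limits the precision.

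The 35 genes, the marker and partner lists and the comparisons were chosen with earlier results of these data known. All 35 genes are named; of each partner list, up to 5 per comparison with the largest differences past 2-fold, except 1 gene that is not reported here. Older array names (Emr1, Mllt4, Pvrl2, Lamb1-1) were matched through RefSeq synonyms, and 4 list genes had no match. Alternatives were quantile normalization and normexp (offset 50) in limma 3.58.1 (R 4.3.3), the deposited log2 values, other filters, probes, percentiles and thresholds. The difference and bound computation was tested on simulated data. Genes were processed in Python 3.11.15.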

Additional observations from a re-analysis of the deposited data

How the results depend on the processing

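No paired analysis was possible because each group has 1 array and the labels give no replicate numbers, and for the same reason no array could be left out. Counts of genes past 2-fold and their medians moved by less than 1.5 times, or by less than the 0.0835 log2 units that spots of a probe differ by, in 87 recomputations, and by more in 13. For maDCs minus imDCs, the 1 lower gene became 2 under quantile normalization and with the authors' deposited values, 0 after normexp correction, 5 at a threshold of 1.5-fold and 0 at 4-fold, and the median of 0.77 was 0.68 under quantile normalization and 1.07 as a mean over all probes. For sDCs minus imDCs, 6 genes were higher at 4-fold. For sDCs minus maDCs, 11 were higher at 1.5-fold, 3 were higher and 5 lower at 4-fold, and the median of -0.35 was -0.47 with dim probes kept. For the antibody, 4 genes were lower at 1.5-fold. The changes with thresholds and filters follow from these as built. The mean over all probes takes in probes whose differences are unlike those of the chosen ones. The cause of the changes under the other normalizations was not tested. A single gene past 2-fold changed direction, Itgb3 in sDCs minus imDCs, which was 0.13 as a mean over its probes. The other Cdh11 probes were added as an alternative after the data were seen.

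Under quantile normalization the median of all genes was 0.02 for maDCs minus imDCs, where it was 0.22 as reported, and 0.08 for sDCs minus imDCs, where it was 0.30. The share of higher genes among all past 2-fold was 58.5% in place of 68.8%, and 55.9% in place of 65.4%. After normexp correction 56 genes of the array were higher and 61 lower with the antibody, in place of 182 and 233. All 18 genes past 2-fold between sDCs and maDCs kept their direction and stayed past 2-fold under quantile normalization and in the deposited values, as did 17 of 18 after normexp correction. Itga7, Itgb8, Selp, Cd44, Pecam1 and Cdh5 each had a difference that fell short of 2-fold under at least 1 background or scaling setting, and normexp reduced the sizes of Itga8, Itga9, Itgae, Pecam1, Itgb8, Cdh2 and Cdh5 by over 1.5 times in at least 1 comparison; the cause was not tested.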
